A study of Mus musculus with 6 samples.

Results

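The 10 cathepsin genes examined here are Ctsa, Ctsb, Ctsc, Ctsd, Ctsf, Ctsh, Ctsk, Ctsl, Ctss and Ctsz. They were chosen by gene symbol from the 47593 rows of the deposited expression table, with the granule serine protease gene Ctsg left out, and all 10 had a row. The series measured total RNA by sequencing in cells of mouse femur marrow selected for c-Kit, a receptor carried by blood progenitors. In both groups the cells carried the MSCVneo retrovirus with MLL-AF9, a leukaemia fusion of the histone methyltransferase MLL with the transcription factor partner AF9, and were selected with G418 and passaged serially in methylcellulose with cytokines. The E531R group of 3 libraries had a substitution in the fusion that the study links to loss of binding to the corepressor BCoR, and the WT group of 3 libraries had the unsubstituted fusion. The WT cells are therefore also transformed cells with a fusion expressed from a virus, and no cells without a fusion are compared. The labels do not say whether the libraries of a group came from separate cultures or animals, so p-values measure only the spread between these libraries. The substitution lies in a gene carried by the virus, and no gene value checked it.

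Cathepsins are proteases that work mainly in the acid interior of endosomes and lysosomes. Most are made as inactive precursors, receive a mannose 6-phosphate tag that directs them to lysosomes, and are cleaved there to the active form. In cells of the myeloid lineage they break down ingested and worn-out proteins, trim antigens, and activate the serine proteases stored in granules. Of the 10 genes, 8 encode cysteine proteases, Ctsd encodes an aspartic protease, and Ctsa encodes a serine carboxypeptidase.

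Recovered read totals were 23755210 to 33459668 in E531R libraries and 14161139 to 30597351 in WT libraries. WT replicate 3 stood apart: its genes differed from those of WT replicates 1 and 2 by a median of 0.314 and 0.333 on the log2 scale, against 0.0676 to 0.0900 between E531R libraries and 0.0798 between WT replicates 1 and 2. Calls of the cathepsin genes and counts of the related lists that change when that library is left out are given both ways. Kit, the gene of the receptor used for selection, averaged 3335 normalised read counts in E531R and 3587 in WT libraries, and Cd34, Mpo, Elane and Myb, other progenitor markers, averaged at least 505 in each group, while Flt3 averaged 5.98 in E531R and 42.6 in WT. Values are normalised read counts, which are reads divided by a size factor of the library. Counting intervals cover counting error only.

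Of the 9 cathepsin genes with enough reads to be tested, 5 rose in E531R cells, and none fell. The 5 were the cysteine protease genes Ctss, Ctsk, Ctsh, Ctsc and Ctsb, with log2 fold changes of 0.76 to 3.96 (limma, adjusted p at most 0.00178). Ctsk, at the upper end, passed the filter on low values only through the E531R libraries, so its place among the tested genes already required a difference, and of the other 8 tested genes 4 rose. Over all 12991 genes tested 10.4% rose and 9.53% fell. Ctsd, Ctsa, Ctsz and Ctsl did not pass the threshold of an adjusted p of 0.05, and Ctsf had too few reads to be tested. At an unadjusted p under 0.05, limma counted 1 gene as lower, Ctsl, and edgeR's quasi-likelihood test, DESeq2 and limma voom on the recovered reads each called 0 cathepsin genes lower. Without WT replicate 3, 7 of the 9 rose, where Ctsd and Ctsa joined the 5, and 1 fell, which was Ctsl; in that fit 24.3% of all genes rose and 23.1% fell. The 3 E531R values all lay above the 3 WT values in 6 of the 9 genes, beside 21.2% of all tested genes, and all lay below them in 1, beside 22.8%. Ctsk was among the 6. The median log2 fold change of the 9 genes, Ctsk included, was 0.76, against 0.01 over all tested genes. The central 50% of all tested genes lay between -0.19 and 0.26. The samples are bulk RNA, so fewer cells of a type and less RNA per cell cannot be told apart.

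**Figure D1:**
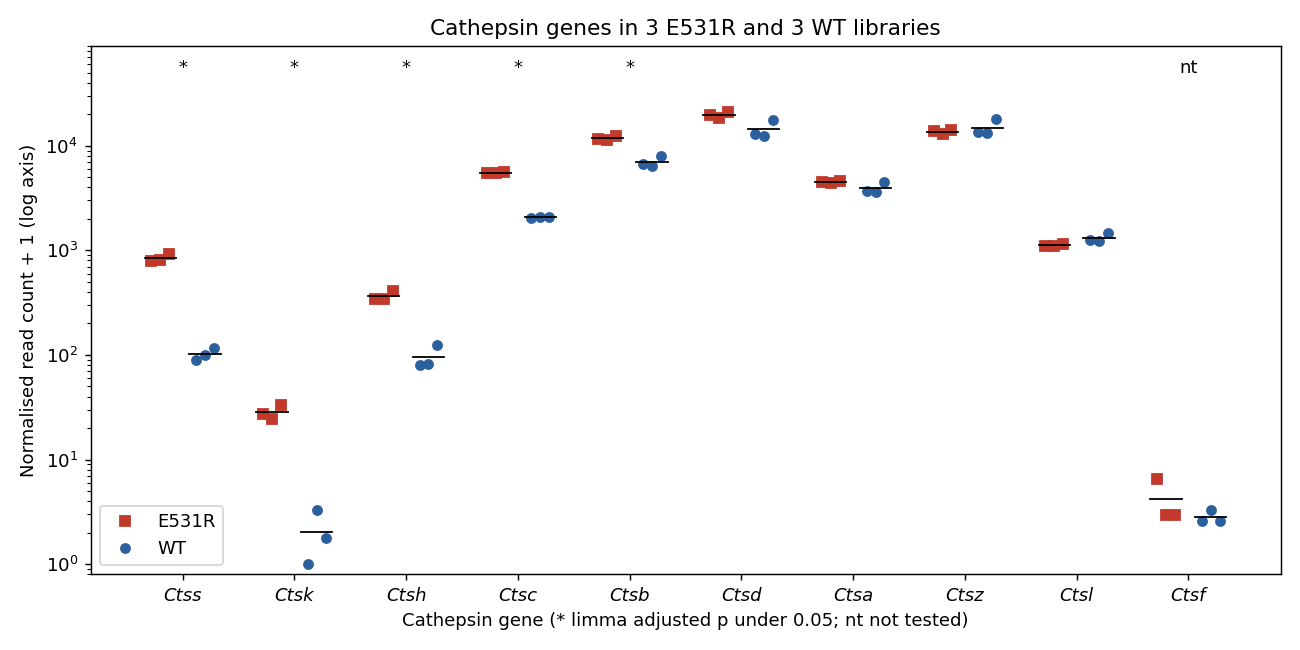
Normalised read count plus 1 (log axis) of the 10 cathepsin genes in each library, with E531R as squares left of WT as circles, and a black line at each mean of value plus 1. Ctss, Ctsk, Ctsh, Ctsc and Ctsb carry an asterisk for an adjusted p under 0.05 by limma, and their squares all lie above their circles.

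Cathepsin S (Ctss) is a cysteine endopeptidase of antigen-presenting cells that cleaves the invariant chain from MHC class II molecules and stays active at neutral pH. Its gene lies on chromosome 3 of GRCm38, from 95526786 to 95556403 on the plus strand. Ctss had 797, 803 and 919 normalised read counts in E531R libraries, against 87.8, 99.9 and 115 in WT libraries. The 2 groups lay far apart, with the lowest E531R value above the highest WT value. The means were 839.6 ± 68.8 in E531R and 101 ± 13.6 in WT (SD, n = 3 each), an 8.32-fold difference. The log2 fold change was 3.05 ± 0.126 (SE), with a 95% interval of 2.75 to 3.35 and an adjusted p of 1.26e-05 by limma. Among the 12991 tested genes it ranked 145th when ordered from the highest log2 fold change.

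Cathepsin K (Ctsk) is the collagen-cleaving cysteine protease by which osteoclasts resorb bone. Its gene ends 17423 bases before the start of Ctss on the same strand of chromosome 3, at 95499256 to 95509362. Ctsk had 38, 24 and 33 reads in E531R libraries and 0, 2 and 1 reads in WT libraries, which as normalised read counts were 26.4, 23.4 and 32.1 in E531R, against 0, 2.30 and 0.787 in WT. It was thus nearly silent in WT and low in E531R, and the groups did not overlap. The ratio of E531R to WT from the summed reads was 25.1, with a counting interval of 8.33 to 124, since only 3 reads stood for WT. The log2 fold change was 3.96 with an adjusted p of 0.00139 by limma. For a gene this low it depends on the constant added before the log, and was 1.76 with a pseudocount of 10 and 4.66 by DESeq2 on the recovered reads. In the authors' deposited table it was 2.26.

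Cathepsin H (Ctsh) is a cysteine aminopeptidase, and in the lung it takes part in the processing of a surfactant protein. Its gene lies on chromosome 9 from 90054152 to 90076089, on the plus strand. Ctsh had 343, 339.6 and 407 normalised read counts in E531R libraries, against 79.8, 81.5 and 124 in WT libraries. WT replicate 3 was the highest WT library and 1.53 times the mean of the other two, yet remained below every E531R value. The means were 363 ± 37.8 in E531R and 94.98 ± 24.8 in WT (SD, n = 3 each), a 3.82-fold difference. Its log2 fold change was 1.95 ± 0.19 (SE), with an interval of 1.498 to 2.40 and an adjusted p of 0.0005 by limma.

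Cathepsin C (Ctsc), also called dipeptidyl peptidase I, removes dipeptides from the precursors of granule serine proteases such as neutrophil elastase and so activates them. Its gene lies on chromosome 7 from 88278085 to 88310888, on the plus strand. Ctsc had 5427, 5459 and 5599 normalised read counts in E531R libraries, against 2015, 2098 and 2078 in WT libraries. Values within each group were close to each other, WT replicate 3 included. The means were 5495 ± 91.5 in E531R and 2064 ± 43.5 in WT (SD, n = 3 each), a 2.66-fold difference. Its log2 fold change was 1.41 ± 0.0596 (SE), with an interval of 1.27 to 1.55 and an adjusted p of 1.32e-05 by limma.

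Cathepsin B (Ctsb) is an abundant cysteine protease with endopeptidase activity that also removes dipeptides from the carboxyl end of proteins. Its gene lies on chromosome 14 from 63122462 to 63145923, on the plus strand. Ctsb had 11690.5, 11394 and 12265 normalised read counts in E531R libraries, against 6722, 6355 and 7929 in WT libraries. No WT value came near the E531R values, and the highest of the WT values was that of replicate 3. The means were 11783 ± 443 in E531R and 7002 ± 824 in WT (SD, n = 3 each), a 1.68-fold difference with a log2 fold change of 0.76 (interval 0.53 to 0.99) and an adjusted p of 0.00178 by limma. Of the exon bases of Ctsb, 774 also lie in exons of Fdft1 on the opposite strand, or 12.8% of them, and whether strand was used in counting is not stated.

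**Figure D2:**
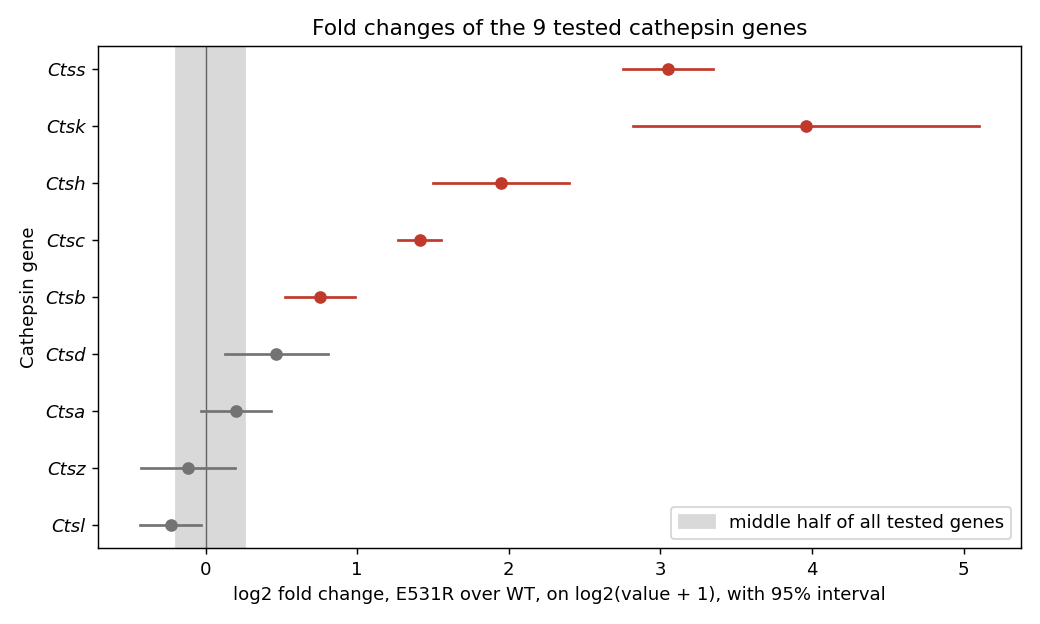
Log2 fold change of each of the 9 tested cathepsin genes, E531R over WT, with 95% interval from limma; red marks an adjusted p under 0.05, and the grey band is the central 50% of all tested genes, from -0.19 to 0.26. Ctsk has the widest interval, and the points of Ctsa and Ctsz lie within the band.

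Cathepsin Z (Ctsz), a cysteine carboxypeptidase, and cathepsin L (Ctsl), a cysteine endopeptidase that degrades many lysosomal proteins, did not pass the test. Ctsz, on chromosome 2 from 174427493 to 174439039 on the minus strand, had 13772, 12879 and 14236 normalised read counts in E531R libraries, against 13632, 13099 and 18034 in WT libraries. The groups overlapped, and WT replicate 3 was 1.35 times the mean of the other two. The log2 fold change was -0.12, with an interval of -0.43 to 0.19 and an adjusted p of 0.573 by limma. It was 0.03 when WT replicate 3 was left out. Ctsl, on chromosome 13 from 64359337 to 64370890 on the minus strand, had 1107, 1097 and 1149 normalised read counts in E531R libraries, against 1264, 1227 and 1450.2 in WT libraries. All E531R values lay below all WT values, but by a small margin. The log2 fold change was -0.23, with an interval of -0.43 to -0.03 and an adjusted p of 0.109 by limma. When WT replicate 3 was left out it was -0.16, with an adjusted p of 0.0128, and passed the threshold. An antisense gene, Gm47123, which has no row in the deposited table, shares 1742 of the exon bases of Ctsl, or 26.8% of them.

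Cathepsin F (Ctsf), a cysteine protease of macrophages, is encoded on chromosome 19 from 4855130 to 4860918, on the plus strand. It had 8, 2 and 2 reads in E531R libraries and 1, 2 and 2 reads in WT libraries. At this depth the groups could not be told apart, since the ratio from the summed reads was 1.90 with a counting interval of 0.623 to 6.89. It was not tested, being below the minimum mean of 10 normalised read counts.

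Cathepsin D (Ctsd), the aspartic endopeptidase of lysosomes, had 19553, 18404 and 20809 normalised read counts in E531R libraries, against 13071, 12312 and 17609 in WT libraries. Its gene lies on chromosome 7 from 142375911 to 142388038, on the minus strand. All E531R values lay above all WT values, and WT replicate 3 was 1.39 times the mean of the other two. The means were 19589 ± 1203 in E531R and 14331 ± 2865 in WT (SD, n = 3 each), a 1.37-fold difference, with a log2 fold change of 0.47 (interval 0.13 to 0.81) and an adjusted p of 0.0638 by limma. When WT replicate 3 was left out the log2 fold change was 0.62 with an adjusted p of 1.36e-08. In DESeq2 on the recovered reads the adjusted p was 0.0345, and in the authors' deposited table it was 0.0351 with a log2 fold change of 0.43. The authors' deposited table places 6 cathepsin genes under an adjusted p of 0.05, the 5 above and Ctsd. Of the exon bases of Ctsd, 808 also lie in exons of Gm49369 on the same strand, or 34.4% of them. Gm49369 has no row in the deposited table.

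Cathepsin A (Ctsa) is a serine carboxypeptidase that also holds lysosomal beta-galactosidase and neuraminidase in a complex. Ctsa, on chromosome 2 from 164832873 to 164841032 on the plus strand, had 4531, 4361 and 4552 normalised read counts in E531R libraries, against 3656, 3621 and 4477 in WT libraries. WT replicate 3 lay among the E531R values, and the other two WT libraries lay below them. The log2 fold change was 0.20, with an interval of -0.03 to 0.43 and an adjusted p of 0.204 by limma. Without WT replicate 3 it was 0.30 with an adjusted p of 4.57e-06.

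**Figure D3:**
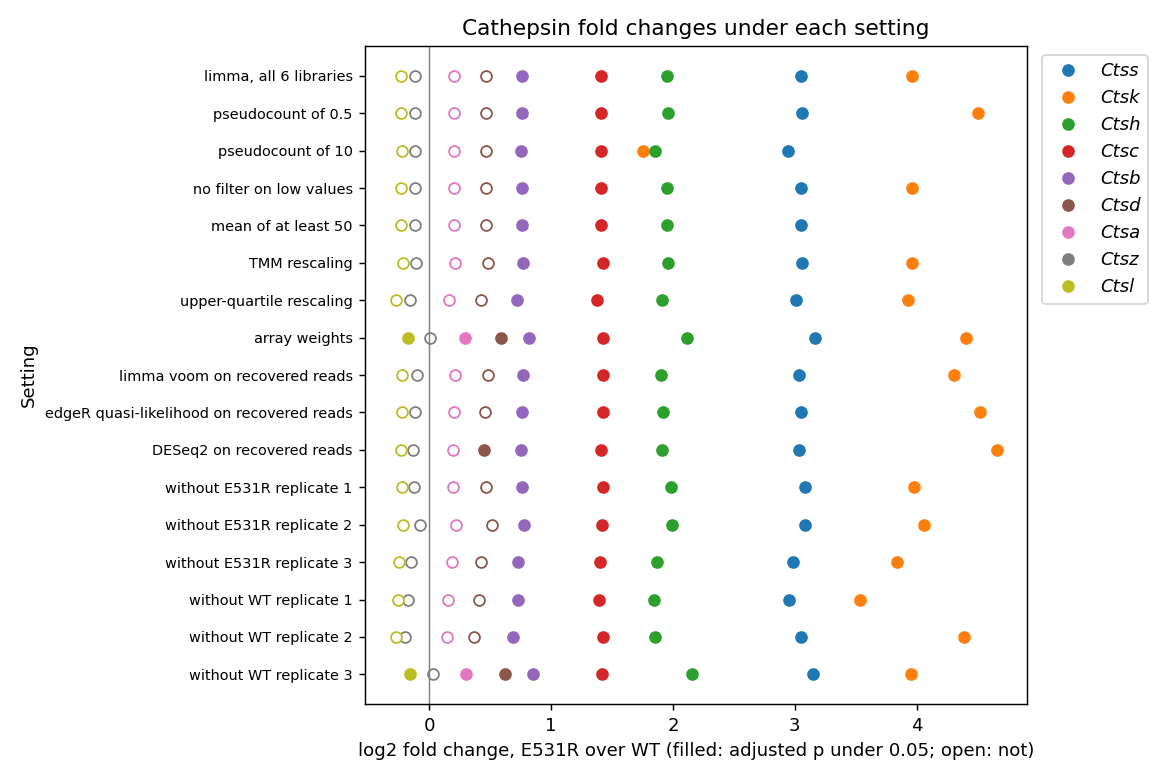
Log2 fold change of the 9 tested cathepsin genes, E531R over WT, under limma with all 6 libraries and under the alternatives, filled where the adjusted p was under 0.05. The alternative with the replicate block is not drawn. Ctss, Ctsh, Ctsc and Ctsb are filled in every row, Ctsk in every row where it was tested, and Ctsd, Ctsa and Ctsl in some.

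The starting regions of the genes were searched for short motifs. RefSeq windows on GRCm38.p6, the 250 bases before an annotated start, matched 8 of the 10 genes, with no entry for Ctsb and Ctsh. These windows were searched on both strands for CACGTG (the core recognised by the lysosomal factor TFEB and by many other factors), its longer form TCACGTGA, which contains it, GAGGAA (the core of the PU.1 family), and the interferon regulatory core, which is GAAA, any 2 bases, then GAAA again. The motif GAGGAA was found in Ctsk, Ctss and Ctsc, 3 of the 8 genes, beside 23.3% of 32851 windows of this length. CACGTG was found in Ctsa, Ctsd, Ctsl and Ctsf, 4 of the 8 genes, beside 6.02% of windows, and TCACGTGA in Ctsa and Ctsd, beside 0.785%. The interferon regulatory core was found in Ctss and in no other of the 8, beside 2.98% of windows. RefSeq starts differ from the gene ends given above, which are from GENCODE: the windows of Ctsl and of the second start of Ctsa lie inside the GENCODE gene, that of Ctsd mostly and that of Ctsf partly. A match is a description and not a binding site. The first 3 windows below are those of genes that rose, and the last 2 are those of the genes with TCACGTGA. Capitals mark the matches of GAGGAA, which on the opposite strand read TTCCTC, of CACGTG, without the outer bases of its longer form, and of the interferon regulatory core, and each sequence runs 5′ to 3′ on the strand of its gene.
Ctss (chr3:95526536-95526785, plus strand): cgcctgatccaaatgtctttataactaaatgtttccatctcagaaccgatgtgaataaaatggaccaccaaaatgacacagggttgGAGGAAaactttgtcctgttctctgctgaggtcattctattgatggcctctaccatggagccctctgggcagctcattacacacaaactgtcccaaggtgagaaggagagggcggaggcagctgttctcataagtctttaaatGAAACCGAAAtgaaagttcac
Ctsk (chr3:95498960-95499209, plus strand): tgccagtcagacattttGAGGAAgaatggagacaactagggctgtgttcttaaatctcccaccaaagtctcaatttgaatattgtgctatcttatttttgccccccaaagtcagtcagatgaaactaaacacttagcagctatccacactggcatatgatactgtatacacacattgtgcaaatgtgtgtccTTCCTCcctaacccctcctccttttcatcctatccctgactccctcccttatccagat
Ctsc (chr7:88277835-88278084, plus strand): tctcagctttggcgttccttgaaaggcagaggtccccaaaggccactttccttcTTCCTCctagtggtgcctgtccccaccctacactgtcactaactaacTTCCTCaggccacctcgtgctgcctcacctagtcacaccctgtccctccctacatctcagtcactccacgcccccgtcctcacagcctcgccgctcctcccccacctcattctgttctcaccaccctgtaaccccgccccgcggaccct
Ctsd (chr7:142387828-142388077, minus strand): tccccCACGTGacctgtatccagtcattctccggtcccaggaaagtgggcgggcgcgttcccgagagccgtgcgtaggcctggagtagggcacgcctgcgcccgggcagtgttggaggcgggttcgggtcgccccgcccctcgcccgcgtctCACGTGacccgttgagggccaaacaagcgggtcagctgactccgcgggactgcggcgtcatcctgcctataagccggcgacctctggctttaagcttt
Ctsa, second start (chr2:164833523-164833772, plus strand): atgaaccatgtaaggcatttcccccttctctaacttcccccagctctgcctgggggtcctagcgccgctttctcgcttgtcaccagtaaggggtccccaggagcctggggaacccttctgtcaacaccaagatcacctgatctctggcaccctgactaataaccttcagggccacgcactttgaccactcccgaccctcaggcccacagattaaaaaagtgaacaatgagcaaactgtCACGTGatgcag

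Levels were compared between genes per kilobase of the principal transcript. In E531R the order was Ctsz, Ctsd, Ctsb, Ctsc, Ctsa, Ctss, Ctsl, Ctsh, Ctsk and Ctsf. In WT it was Ctsz, Ctsd, Ctsb, Ctsa, Ctsc, Ctsl, Ctss, Ctsh, Ctsf and Ctsk. Ctsz had 9458 ± 479 and Ctsd 9210 ± 565 normalised reads per kilobase in E531R, and while these ranges over libraries overlapped, Ctsz was above Ctsd within each of the 3 libraries. The level of Ctsc per kilobase was 2204 ± 36.7 in E531R, against 828 ± 17.4 in WT, and it stood above Ctsa in E531R (1229 ± 28.8) and below Ctsa in WT (1075 ± 133). When levels were set per total exon length instead, Ctsa stood above Ctsc in E531R as well, and the last 2 places in WT changed over. Of the summed level per kilobase of the 10 genes, Ctsz made up 36.4% ± 0.336 in E531R and 48.6% ± 0.522 in WT (SD, n = 3 each). Ctsd made up 35.4% in E531R and 31.6% in WT, Ctsb 9.55% in E531R and 6.98% in WT, and Ctsc 8.48% in E531R and 3.96% in WT. Ctss made up 2.38% ± 0.113 in E531R and 0.352% ± 0.0346 in WT. Shares sum to a whole, so a higher share of one gene lowers the rest. Of all reads, the 10 genes took 0.246%, 0.237% and 0.254% in E531R libraries, against 0.179%, 0.172% and 0.215% in WT libraries, with no overlap.

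**Figure D4:**
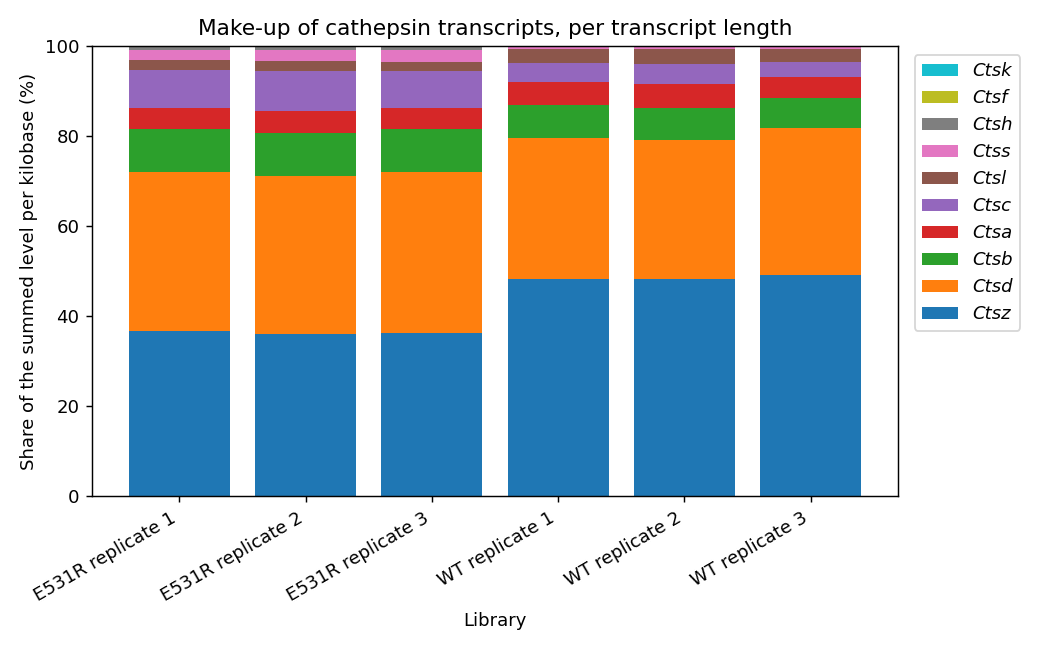
Share in percent of the summed level per kilobase of the 10 cathepsin genes (vertical axis) that each gene holds in each library, with the E531R libraries left of the WT libraries. The bottom band, Ctsz, is 36.4% on average in E531R and 48.6% in WT, and Ctsd, Ctsc, Ctsb, Ctss and Ctsh hold larger bands in E531R.

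Other cathepsin genes of the mouse had few or no reads, apart from Ctso. Of 12 other mouse cathepsin genes, 9 were at 0 reads in all 6 libraries, and these are genes of the placental type. Ctso, a cysteine cathepsin, was the only one tested, with a log2 fold change of 0.00 and an adjusted p of 0.987. Ctse, an aspartic protease, had 42 reads over E531R and 10 over WT libraries and was not tested.

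Inhibitors of cysteine cathepsins bind these proteases and block them. Of 15 inhibitor genes, 14 were tested, and 9 rose and 2 fell, with a median log2 fold change of 3.69, against 0.01 over all tested genes. All 9 that rose are stefin A genes, and of the 5 other tested inhibitors none rose and 2 fell. Of these 9, BC117090 and Gm5416 passed the filter on low values only through the E531R libraries. Their place among the tested genes, and in the median, already required a difference. Over all genes tested 10.4% rose and 9.53% fell, to be set beside these counts and those of the lists below. The 4 with the smallest adjusted p were Stfa1, Stfa2, Stfa3 and BC100530, members of a family of near-identical copies, so that the split of reads between them is uncertain. Stfa1 averaged 8993 ± 598 normalised read counts in E531R and 645 ± 34.2 in WT (SD, n = 3 each), and its log2 fold change was 3.80 with an adjusted p of 1.44e-06 by limma. BC100530 averaged 7385 ± 527 in E531R and 510.3 ± 56.2 in WT, Stfa2 1091 ± 35.6 in E531R and 41.8 ± 1.15 in WT, and Stfa3 701 ± 47.7 in E531R and 10.6 ± 1.14 in WT. Other inhibitors are named after their values were seen. Ctla2a, an inhibitor in mice that resembles the propeptide of cathepsin L, fell to 22.6 ± 2.58 in E531R, against 172 ± 13.1 in WT (adjusted p 3.13e-05 by limma). Its relative Ctla2b had a log2 fold change of -0.59 with an adjusted p of 0.0113, which was 0.0628 without E531R replicate 2. Cst3 (cystatin C), Cst7 (cystatin F, an inhibitor of cathepsin C) and Cstb (stefin B) had log2 fold changes of 0.31, -0.11 and 0.08 with adjusted p of 0.218, 0.476 and 0.650. Without WT replicate 3, 11 rose, where Cst3 had a log2 fold change of 0.49 and Cstb of 0.19. In that fit 24.3% of all tested genes rose and 23.1% fell.

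Of 10 genes that sort or mature lysosomal proteases, 1 rose and 2 fell, with a median log2 fold change of 0.06. In the fit that leaves out WT replicate 3 these counts were 6 and 2. Igf2r, the cation-independent mannose 6-phosphate receptor that carries tagged cathepsins to lysosomes, averaged 579 ± 39.3 in E531R and 5834 ± 73.2 in WT (SD, n = 3 each), which is 10.1-fold lower, with a log2 fold change of -3.33 and an adjusted p of 1.44e-06 by limma. M6pr, the cation-dependent receptor of the same tag, averaged 10488 ± 305 in E531R and 9540.4 ± 448 in WT, a log2 fold change of 0.14 with an adjusted p of 0.221. Gnptab, which makes the enzyme that starts the tag, averaged 3627 ± 74.9 in E531R and 4891 ± 322 in WT (log2 fold change -0.43, adjusted p 0.00618 by limma). Sort1 (sortilin), a sorting receptor, had a log2 fold change of 0.18 and an adjusted p of 0.220. Lgmn (legumain), an asparaginyl endopeptidase that processes cathepsins, averaged 93.9 ± 11.3 in E531R and 8.65 ± 4.43 in WT, a log2 fold change of 3.40 with an adjusted p of 0.000644 by limma. Lgmn was the 1 gene that rose with all libraries. It passed the filter on low values only through the E531R libraries, so its place among the tested genes already required a difference. M6pr and Sort1 were named after their values were seen, and when WT replicate 3 was left out they passed, with log2 fold changes of 0.18 and 0.26 and adjusted p of 0.000935 and 1.86e-05 by limma.

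Neither partner of cathepsin A passed the test by limma, also at an unadjusted p under 0.05, nor by edgeR, DESeq2 or limma voom, though with array weights Glb1 had an adjusted p of 0.0242: Glb1 (beta-galactosidase) had a log2 fold change of -0.21 and an adjusted p of 0.228, and Neu1 (neuraminidase) of -0.03 and 0.859. Of 8 granule serine proteases of the kind that cathepsin C activates, 5 were tested, 1 rose and 2 fell, with a median log2 fold change of 0.26. Ctsg averaged 37851 ± 1718 in E531R and 68375 ± 11394 in WT, a log2 fold change of -0.84 with an adjusted p of 0.00384 by limma. Mcpt8, a protease of basophils, averaged 68.4 ± 10.2 in E531R and 130 ± 12.8 in WT (log2 fold change -0.92, adjusted p 0.00625 by limma). Prtn3 (proteinase 3) had a log2 fold change of 0.67 with an adjusted p of 0.0129, which was above the threshold without any 1 of the 3 E531R libraries or WT replicate 1 (0.0524 to 0.0658). Elane (neutrophil elastase), named after its values were seen, had a log2 fold change of 0.26 and an adjusted p of 0.217, against 0.39 and 5.39e-06 when WT replicate 3 was left out. Without WT replicate 3, 3 of these genes rose and 2 fell.

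Of 8 genes of antigen presentation that cathepsin S serves, 5 were tested, 1 rose and 2 fell, with a median log2 fold change of -0.41, and when WT replicate 3 was left out 1 rose and 3 fell. H2-Ab1, the beta chain of a class II molecule, had 3 reads over E531R and 223 reads over WT libraries, a ratio of E531R to WT of 0.0107 with a counting interval of 0.00218 to 0.0315. The untested genes of this list are named after their values were seen. H2-Aa had 3 reads over E531R and 2 over WT libraries, Ciita 1 and 1, and H2-Eb1 3 and 27. H2-DMb1, a chain of the molecule that loads peptides, averaged 347 ± 7.25 in E531R and 844 ± 170 in WT, with a log2 fold change of -1.26 and an adjusted p of 0.000947 by limma. Cd74, the invariant chain that cathepsin S cleaves, averaged 36.8 ± 1.88 in E531R and 5.22 ± 2.40 in WT, with a log2 fold change of 2.67 and an adjusted p of 0.00128 by limma. Cd74, the 1 gene that rose, passed the filter on low values only through the E531R libraries, and H2-Ab1 only through the WT libraries. The place of both among the tested genes already required a difference. Ifi30, a thiol reductase of lysosomes named after its values were seen, had a log2 fold change of 0.01 and an adjusted p of 0.979. Of the 4 transcription factors of lysosomal genes, none passed by limma: Tfeb averaged 708 ± 46.7 in E531R and 482 ± 121 in WT with a log2 fold change of 0.58 and an adjusted p of 0.0564, and without WT replicate 3 it was 0.78 with an adjusted p of 7.56e-08. The unadjusted p of Tfeb was 0.0118 by limma, and the others of the 4 were above 0.05. DESeq2 gave Tfeb an adjusted p of 0.0288, edgeR 0.0589 and limma voom 0.0538, and none of these tools called the other three. Tfe3, Tfec and Mitf had log2 fold changes of 0.02, 0.07 and 0.42.

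**Figure D5:**
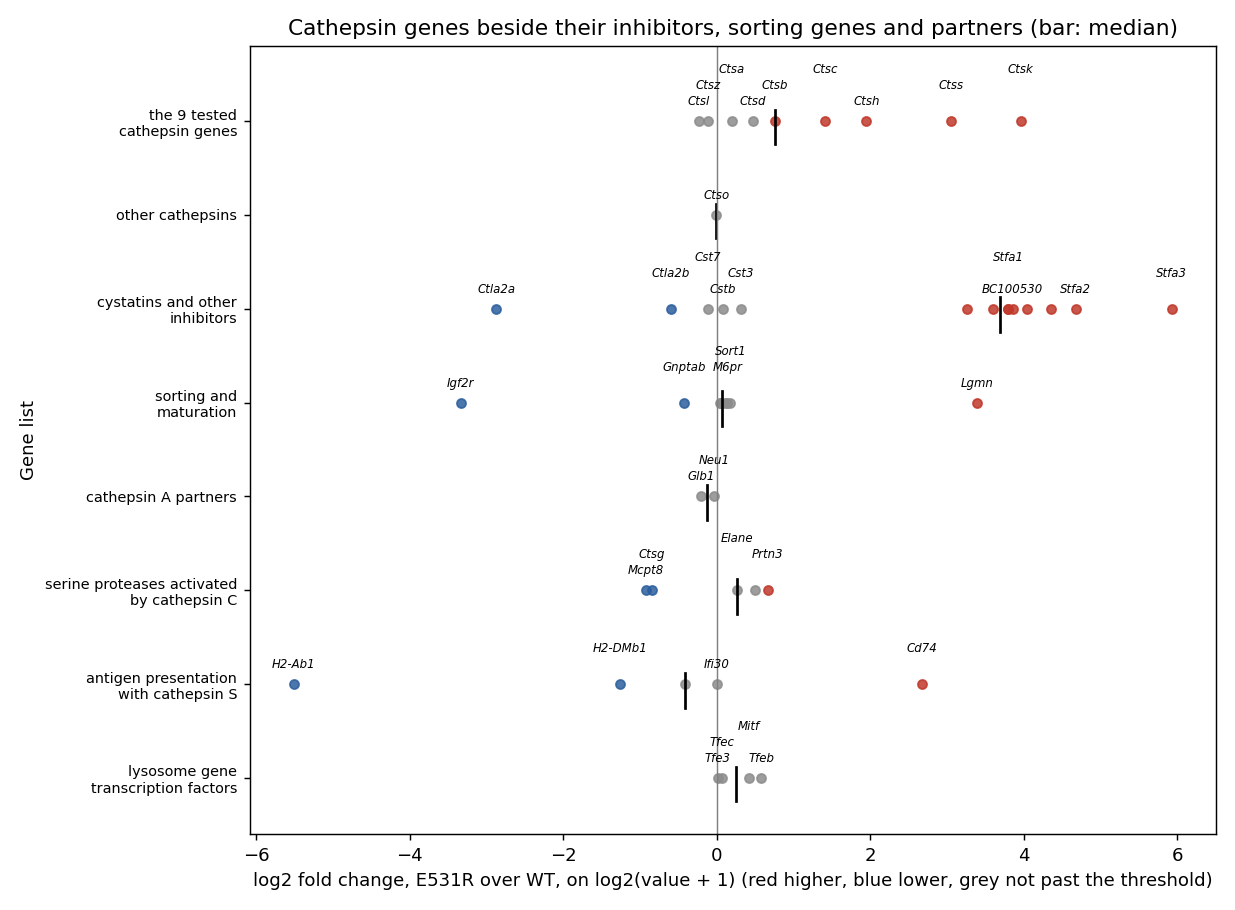
Log2 fold change of each tested gene, E531R over WT, on the horizontal axis, with the 9 tested cathepsin genes in the top row and the related gene lists in the rows below. Red points rose, blue points fell and grey points had an adjusted p of 0.05 or more, and the black bar is the median, at 3.69 for the inhibitors and 0.76 for the cathepsin genes.

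Markers of several cell types that use these proteases moved with the groups. All 5 tested of 12 macrophage markers rose, and their summed level over the 12 ran from 3843 to 4366 in E531R libraries, against 699 to 846 in WT libraries, while Timd4 was at 0 and 6 of the 12, Timd4 among them, averaged under 1. Cd163, not tested, went the other way, with 14 reads over E531R and 29 over WT libraries (means of 3.99 and 10.7). All 8 tested of 9 neutrophil markers rose, with sums of 67738 to 75266 in E531R and 6438 to 8711 in WT. Of 8 osteoclast markers, 5 were tested, 3 rose and 1 fell, with sums of 2229 to 2359 in E531R and 1590.1 to 1981 in WT, and Calcr and Ocstamp were at 0. The 1 that fell was Acp5, at 49.8 ± 6.70 in E531R and 120 ± 25.9 in WT (adjusted p 0.00422 by limma). The largest part of each sum was Nfatc1, which did not pass and averaged 1281 in E531R and 1304 in WT. Of 6 progenitor markers, 2 rose and 1 fell, against 3 and 3 when WT replicate 3 was left out. Of 8 dendritic cell markers, 3 were tested, 1 rose and 1 fell, with sums of 1124 to 1241 in E531R and 1172 to 1513 in WT, and Cd209a was at 0. Mertk, Atp6v0d2, Mmp9 and Itgax among these markers, and Lgmn, Cd74, BC117090 and Gm5416 among the related genes, passed the filter on low values only through the E531R libraries, and H2-Ab1 and Flt3 only through the WT libraries. The part of these cell types in the cathepsin results was not tested.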

How the data were processed

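Total RNA of 6 libraries was sequenced, 3 with MLL-AF9 E531R and 3 with MLL-AF9 WT, grouped by the titles in the labels. FastQC, cutadapt, HISAT2, SAMtools, featureCounts and DESeq2 with build GRCm38 are named per the submitters' processing notes, but no version, annotation or strand setting. The deposited values, of unit signal, are gene read counts that the authors divided by 1 size factor per library, and 100% came out as whole reads within 0.001 reads. A change shared by all genes would be lost in such scaling. The authors' deposited log2 fold change is WT over E531R and is turned here. The authors' table also holds the standard error of the log2 fold change, a score (the Wald statistic), and p-values.

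Differences were tested with limma 3.58.1 (R 4.3.3, trend) on log2(value + 1), a pseudocount of 1, for the 12991 genes whose mean reached 10. The test was two-sided, with Benjamini-Hochberg adjustment over all genes. It was also run on simulated counts, whose outcome is not given here. Those counts were drawn independently for each gene, so they held no library that stands apart as WT replicate 3 does. The log2(value + 1) scale understates the fold changes of low genes. Alternatives were other pseudocounts, filters, rescalings, array weights, the replicate block, edgeR 4.0.16, DESeq2 1.42.0 and limma voom on recovered reads, and each library left out. Positions and lengths are from GENCODE M21. The named genes are all 10 members and, from each of 7 related lists, up to 4 genes past the threshold with the smallest adjusted p (all genes in lists of up to 4); a few are marked as chosen afterwards. Members, lists and tests were chosen with earlier results of these data known. Genes with near-identical copies or overlapping exons cannot be separated.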

Additional observations from a re-analysis of the deposited data

How the results depend on the processing

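Ctss, Ctsh, Ctsc and Ctsb stayed higher in E531R and past the threshold in all 17 alternatives, and Ctsk in each where it was tested (a minimum mean of 50 removes it). The count of higher genes was 5 with all libraries, 4 at that minimum, 6 by DESeq2, and 7 with array weights. The count of lower genes was 0 with all libraries and 1 (Ctsl) with array weights. Over all 12991 genes tested, 1349 were higher and 1238 lower with all libraries, against 3432 and 3266 with array weights. DESeq2 called 1293 higher and 1224 lower over all genes. At the minimum mean of 50, 1086 of 10578 genes were higher and 961 lower. Leaving out each library in turn, 5 to 7 cathepsin genes were higher and 0 to 1 lower, the upper ends both without WT replicate 3, where over all genes 3159 were higher and 2999 lower (819 to 1128 and 746 to 1053 without any other library). Ctsz was never past the threshold. The same-number correlations of deviations were 0.00174, 0.192 and 0.238. The same number gave the highest correlation for E531R replicates 2 and 3, while E531R replicate 1 correlated best with WT replicate 2 (0.0224). Whether the labels' numbers pair the libraries cannot be decided from these values. Those of E531R replicate 1 ran only from -0.0155 to 0.0224, and E531R replicate 2 correlated almost as well with WT replicate 1 (0.177). With the replicate block, 6 cathepsin genes were higher (Ctsd joined) and 0 lower, and over all genes 1179 were higher and 1062 lower. The causes were not tested. Depth limits Ctsk and Ctsf.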
